A study of Rattus norvegicus with 9 samples.

Results

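Cytosolic ribosomal proteins are the structural proteins of the ribosomes that translate nuclear mRNAs. Their genes were taken as all array probes whose RefSeq accession belongs to a rat gene with a symbol starting with Rpl or Rps and a number, or with Rplp or Rpsa, without the Rps6k kinases. The rule found 143 probes of 82 genes, among 15163 genes with a symbol on the array. Of the 82 genes, 73 encode core subunit proteins (44 of the large and 29 of the small subunit), out of 77 core genes listed. The other 9 are paralogs or copies: Rpl3l, Rpl22l1, Rps4y2, Rpl27l2, Rpl36al1, Rpl37l1, Rpl39l1, Rplp1l1 and Rps12l4. All 73 core probes were well above background on all 9 arrays. Rpl3l and Rpl27l2 were well above background on 0 arrays, so that 80 of the 82 genes were compared.

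RNA came from prostates of male Sprague Dawley rats, which were bought at 6 weeks of age, and was hybridized to one-colour Agilent arrays, 3 per group. Sham rats had a sham operation for castration, subcutaneous corn oil and oral vehicle. BPH rats (benign prostatic hyperplasia, the androgen-induced model of prostate enlargement) were castrated and received subcutaneous dihydrotestosterone (3 mg/kg once daily for 4 weeks) and oral vehicle. BPH+ghrelin rats were castrated, received the same dihydrotestosterone, and were given oral rat ghrelin (20 nmol/kg once daily) during the last 2 weeks, as the methods describe it, although another passage of the study gives a different dose and route. Both BPH groups were thus castrated and given an androgen from outside, and the effects of castration and of dihydrotestosterone cannot be told apart. The comparison of BPH+ghrelin with BPH asks what ghrelin changed in the enlarged prostate, and BPH against sham asks what the model itself changed.

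A eukaryotic ribosome has a small subunit, which reads the mRNA, and a large subunit, which links amino acids, and each protein is needed once per ribosome, apart from the P-stalk proteins. Many mRNAs of this family begin with a terminal oligopyrimidine tract (TOP), a run of C and T bases (U in the RNA) that starts with C and through which growth factor and TOR signalling mostly regulate translation rather than the amount of mRNA. Cell growth needs new ribosomes, and androgens are known to drive protein synthesis in the prostate. Free Rpl5 and Rpl11 also bind Mdm2, which links ribosome assembly to p53.

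The start regions below belong to genes described in the comparisons and are shown to compare the C and T runs around their starts, which not all of them have at the annotated start. They were read from the RefSeq promoter table (assembly GRCr8), on the strand of the gene, from 45 bases before to 20 bases from the annotated start. Capitals mark the longest run of C and T in the window.
Rpl19 (chr10:83519019-83519083, + strand): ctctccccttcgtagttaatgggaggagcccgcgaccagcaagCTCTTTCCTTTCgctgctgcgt
Rpl5 (chr14:1995206-1995270, - strand): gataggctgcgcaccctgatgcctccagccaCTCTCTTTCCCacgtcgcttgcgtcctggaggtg
Rpl22 (chr5:168117916-168117980, + strand): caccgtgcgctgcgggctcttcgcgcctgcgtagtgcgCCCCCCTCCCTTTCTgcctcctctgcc
Rps26 (chr7:1643385-1643449, - strand): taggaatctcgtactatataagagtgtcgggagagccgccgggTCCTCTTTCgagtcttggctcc
Rplp0 (chr12:46718371-46718435, - strand): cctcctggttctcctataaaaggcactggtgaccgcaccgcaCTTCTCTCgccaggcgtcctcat
Rps16 (chr1:92770613-92770677, + strand): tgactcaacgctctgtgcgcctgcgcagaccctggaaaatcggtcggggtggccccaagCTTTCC
In Rpl19 the run of 12 bases spans the annotated start, whereas in Rpl5 a run of 11 bases begins at position -14 and ends before it. In Rps16 the longest run has 6 bases, begins at position 15 and reaches the end of the window.

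The promoter table held 62 of the 77 core symbols, with 63 windows. Of these, 24 (38.1%) had C at the annotated start followed by at least 4 C or T bases, compared with 2.63% of all 33469 windows in the table. A run of 8 or more C or T bases lay in the printed part of 50 windows (79.4%), compared with 25.7% of all windows. Over the whole window of 300 bases and on both strands, CCGGAAG (an ETS-type motif) was found in 31.7% of the subunit windows and 8.75% of all windows. ATGGCGG (a YY1-type motif) was found in 23.8% and 4.8%, and GGGCGG (a GC box) in 58.7% and 33.1%. TATAAA was found in 9.52% of the subunit windows and in 14.2% of all windows. These shares describe letters in a window and were not tested.

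Probe signals are given as log2 values after quantile normalization over the 9 arrays, and differences are differences of group means on that scale. Differences were tested with limma over all genes, with Benjamini-Hochberg adjustment, and a gene was called at an adjusted p under 0.05. With 3 arrays in either group, the smallest p of a two-sided exact permutation test is 0.1. The labels number the samples and do not name the animals, and the study describes the arrays of the BPH groups as separate rats. The sham arrays are taken as separate rats too, and if any share an animal the p-values cover technical spread only. All 3 comparisons come from one model, and each pair of them shares 3 arrays.

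The raw signal at the 75th percentile ranged from 327 in sham replicate 2 to 1065 in BPH replicate 1, and 61.5% to 75.2% of the probes were well above background, with the lowest share again in sham replicate 2. Arrays with one scan time are taken as a slide: BPH replicates 1 to 3 with BPH+ghrelin replicate 1, BPH+ghrelin replicates 2 and 3 with sham replicates 1 and 2, and sham replicate 3 alone. No slide holds both BPH and sham arrays, so all differences of BPH against sham are also differences between slides. In each group 1 array mostly lay between the other 2. Sham replicate 3 did so for 73.7% of all genes and for 51 of the 73 subunit genes, BPH replicate 2 for 71.8% and 41, and BPH+ghrelin replicate 2 for 69.3% and 43. The p-values assume that the arrays are independent samples, and whether these 3 arrays are was not tested. Without them, which leaves 2 arrays a group, 0 subunit genes were called in any comparison, and 3, 0 and 2 of all genes were called in BPH against sham, BPH+ghrelin against BPH and BPH+ghrelin against sham. Leaving out the middle array keeps the 2 outer ones, which widens the spread within groups, and fewer arrays remain. Fewer calls would follow in any case, so this loss cannot decide whether the arrays are independent. All 8 secretory epithelium markers, among them Pbsn (probasin), were well above background on all 9 arrays, as were all 6 smooth muscle markers. In bulk RNA of this kind, fewer cells of a type and less RNA per cell cannot be told apart.

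The subunit probes were among the brightest on the array. Of the 73 probes, 70 lay in the brightest 5% of all probes by their mean, and 53 lay in the brightest 1%. Brightness of a probe depends on its sequence and does not rank transcripts. Among all 304 probes in the brightest 1%, 65 (21.4%) belonged to the 82 genes, and quantile normalization assigns the same set of values to this range on every array. Within groups, the median SD of a subunit gene was 0.07, compared with 0.27 for all genes tested.

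In BPH against sham, ribosomal protein mRNAs differed little and in both directions after quantile normalization, whereas with 75th percentile scaling their median was -0.55 and 1 of the 73 was higher. None of the 73 subunit genes was called, whereas 4.35% of all 19575 genes and unnamed targets tested were called. At an unadjusted p under 0.05, 1 subunit gene was higher and 3 were lower. The arrays of the 2 groups did not overlap for 14 subunit genes (5 higher and 9 lower in BPH), or 19.2%, below the 31.3% over all genes. No subunit gene reached a 2-fold difference, against 8.18% of all genes. The median difference was -0.03 over the 73 genes, -0.01 for the large and -0.05 for the small subunit, beside 0.04 over all genes. Of the 73 differences, 62 (84.9%) were smaller than 0.2 in size, compared with 33.7% of all differences. All genes include dimmer and more variable probes (median SE 0.21, against 0.11 for the subunit genes). A share over probes of like brightness was not computed.

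The 3 subunit genes with the lowest values in BPH relative to sham were Rps26, Rps19 and Rpl22. Rps19, a small subunit protein required for maturation of the 18S rRNA and mutated in Diamond-Blackfan anemia, was at 15.06, 15.61 and 15.31 in sham and at 14.94, 14.87 and 14.79 in BPH. The groups did not overlap, and sham replicate 2 was the highest. The difference was -0.46 (SE 0.15, n = 3 per group, limma adjusted p = 0.115). Its other 2 probes gave -0.49 and -0.66, in the same direction.

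Rps26, a small subunit protein near the mRNA exit channel, was at 9.78, 11.23 and 10.45 in sham and at 9.80, 9.83 and 9.89 in BPH. Sham replicate 1 lay below all BPH arrays, while sham replicates 2 and 3 lay above them. The difference of -0.64 (SE 0.33, limma adjusted p = 0.25) was therefore within the spread of the sham arrays (SD 0.73, n = 3). Rpl22, an RNA-binding protein of the large subunit that is dispensable for translation, was at 15.36, 16.05 and 15.77 in sham and at 15.38, 15.36 and 15.43 in BPH. Here too sham replicate 1 lay at the level of BPH, and the difference was -0.34 (SE 0.17, limma adjusted p = 0.245). Without sham replicate 1 the adjusted p fell below 0.05 for all 3 genes, to 0.0419 for Rps26, 0.0333 for Rps19 and 0.0407 for Rpl22, but 15.7% of all genes were then called, against 3 of 73 subunit genes. Without sham replicate 2 the differences shrank to -0.27 for Rps26, -0.32 for Rps19 and -0.18 for Rpl22 (adjusted p = 0.518, 0.166 and 0.474).

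Rpl5, Rplp1 and Rps4x had the highest values in BPH relative to sham. Rpl5, which carries the 5S rRNA into the large subunit together with Rpl11, was at 14.48, 14.35 and 14.41 in sham and at 14.80, 14.73 and 14.65 in BPH. All BPH arrays were above all sham arrays, and the difference was 0.31 (SE 0.11, limma adjusted p = 0.122). It turned to -0.16 when each array was scaled to its 75th percentile. Rplp1, a protein of the P stalk that recruits elongation factors, was at 15.09, 14.72 and 15.09 in sham and at 15.13, 15.14 and 15.26 in BPH. Its difference of 0.21 (SE 0.14, limma adjusted p = 0.341) was 0.087 without sham replicate 2, the lowest array, and turned to -0.31 with 75th percentile scaling. Rps4x, a small subunit protein encoded on the X chromosome, was at 12.26, 12.30 and 12.23 in sham and at 12.36, 12.46 and 12.56 in BPH, a difference of 0.20 (SE 0.11, limma adjusted p = 0.273) without overlap, which was 0.015 with 75th percentile scaling.

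With ghrelin, relative to BPH alone, 1 of 73 subunit genes was called, beside 1.49% of all 19783 genes. This was Rpl19, whose brighter probe was higher and whose second probe was lower. At an unadjusted p under 0.05, 2 subunit genes were higher and 2 were lower. The arrays did not overlap for 32 subunit genes (20 higher and 12 lower with ghrelin), or 43.8%, beside 39.2% of all genes. No subunit gene reached a 2-fold difference, against 6.13% of all genes. The median difference was 0.04 for both the large and the small subunit, beside 0.01 over all genes, and 63 of the 73 differences (86.3%) were smaller than 0.2 in size. With 75th percentile scaling, however, the median over the 73 genes was 0.50 and 73 of the 73 were higher with ghrelin.

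Rpl19 is a large subunit protein that helps to form a bridge between the subunits, and its mRNA is often used as a reference in PCR. Its brighter probe was at 15.99, 16.24 and 16.14 in sham, at 16.03, 15.94 and 15.83 in BPH, and at 16.67, 16.64 and 16.50 in BPH+ghrelin. All ghrelin arrays were above all other arrays, and sham and BPH overlapped. The difference to BPH was 0.67 (SE 0.12, a 1.59-fold ratio, limma adjusted p = 0.0436), and within the slide that holds the BPH arrays and BPH+ghrelin replicate 1 it was 0.73. With the slide as a block, where 2 of all genes were called, the adjusted p was 0.339, and with 75th percentile scaling the difference was 1.07 with an adjusted p of 0.0624. The call was lost when any 1 of the 6 arrays was left out (adjusted p 0.0665 to 0.221) and also without sham replicate 3 (0.101).

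The second Rpl19 probe went the other way. It was at 14.47, 14.69 and 14.58 in sham, at 14.63, 14.65 and 14.48 in BPH, and at 14.11, 14.28 and 14.47 in BPH+ghrelin. The ghrelin arrays lay below all BPH arrays, with a difference of -0.30 (SE 0.13, limma adjusted p = 0.25 among all probes). Both probes were well above background on all 9 arrays and had the same order in sham, with replicate 2 the highest and replicate 1 the lowest. Rps26 and Rpl22 had this order in sham too, so it is not particular to Rpl19. The 2 Rpl19 probes differed by 0.97 in their ghrelin difference, the largest such range among the 47 member genes with several tested probes, whose median range was 0.13. The call of Rpl19 therefore held for 1 of its 2 probes.

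**Figure D1:**
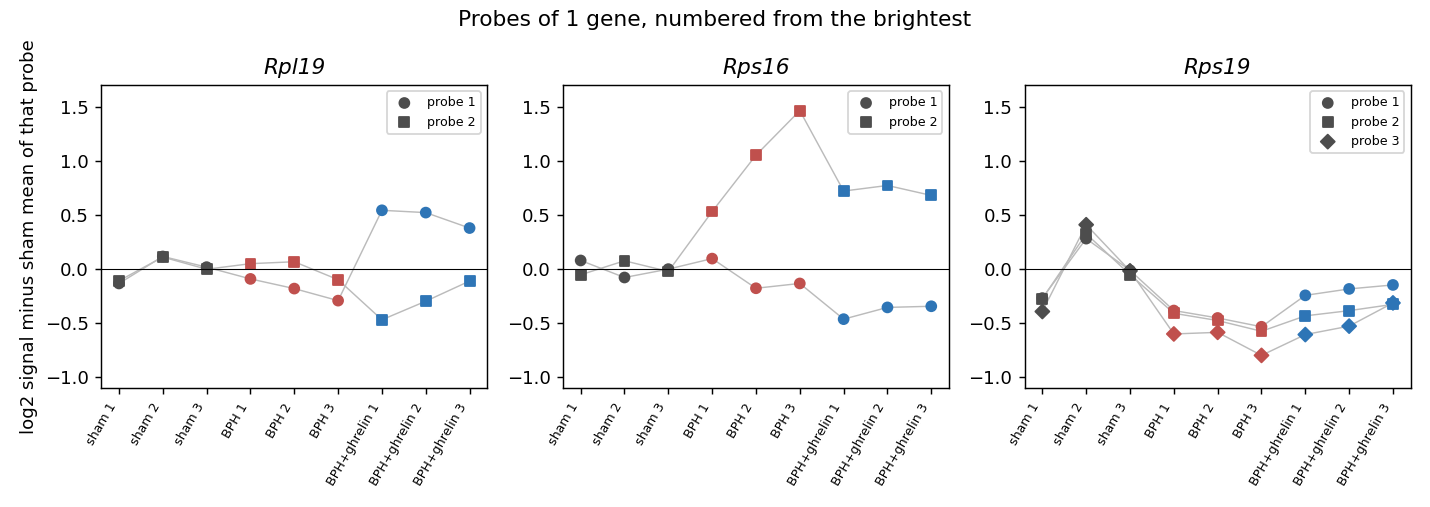
Probes of Rpl19, Rps16 and Rps19 on the 9 arrays, as log2 signal minus the mean of the 3 sham arrays of the same probe (y axis), with probe 1 the brightest; grey is sham, red BPH and blue BPH+ghrelin. The 2 probes of Rpl19 separate in the ghrelin arrays, those of Rps16 separate in both BPH groups, and the 3 probes of Rps19 run together.

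Rpl5 had the lowest difference with ghrelin. It was at 14.31, 14.20 and 14.31 in BPH+ghrelin, below every BPH array (14.65 to 14.80) and every sham array (14.35 to 14.48). The difference to BPH was -0.46 (SE 0.11, limma adjusted p = 0.08), and -0.42 within the shared slide. It was called with normexp background correction (adjusted p = 0.0395), with the 6 arrays of the comparison alone (adjusted p = 0.0419) and without sham replicate 2 (adjusted p = 0.0318), where 1.98%, 10.7% and 10.5% of all genes were called. It turned to 0.04 with 75th percentile scaling. Rpl11, its partner in the 5S particle, was at 15.68, 15.58 and 15.54 in BPH and at 15.46 in each of the 3 ghrelin arrays, a difference of -0.14 (SE 0.10, limma adjusted p = 0.455).

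Rpl17 and Rps16 followed at the lower end. Rpl17, which lies at the exit of the peptide tunnel, was at 14.16, 13.95 and 13.69 in BPH and at 13.45, 13.59 and 13.76 in BPH+ghrelin. The groups overlapped, and the difference was -0.33 (SE 0.19, limma adjusted p = 0.356), or -0.45 to -0.22 over the arrays left out. Its second probe, which was almost as bright, differed by 0.04 (SE 0.18). Rps16, a protein of the head of the small subunit, was at 12.96, 12.69 and 12.73 in BPH and at 12.40, 12.51 and 12.52 in BPH+ghrelin, a difference of -0.32 (SE 0.12, limma adjusted p = 0.193) without overlap. With 75th percentile scaling these differences turned to 0.09 for Rpl17 and 0.01 for Rps16.

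At the upper end stood Rpl22 and Rps28 behind Rpl19. Rps28, a small subunit protein at the mRNA exit, was at 15.28, 15.25 and 15.18 in BPH and at 15.44, 15.55 and 15.58 in BPH+ghrelin. The difference was 0.29 (SE 0.10, limma adjusted p = 0.173), the groups did not overlap, and sham lay between them at 15.43, 15.42 and 15.39. Rpl22 was at 15.64, 15.67 and 15.75 in BPH+ghrelin, above all BPH arrays, a difference of 0.30 (SE 0.17, limma adjusted p = 0.348), while its second probe differed by 0.093 (SE 0.18) with overlap. Both values became larger with 75th percentile scaling, 0.74 for Rps28 and 0.77 for Rpl22, and neither was called.

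**Figure D2:**
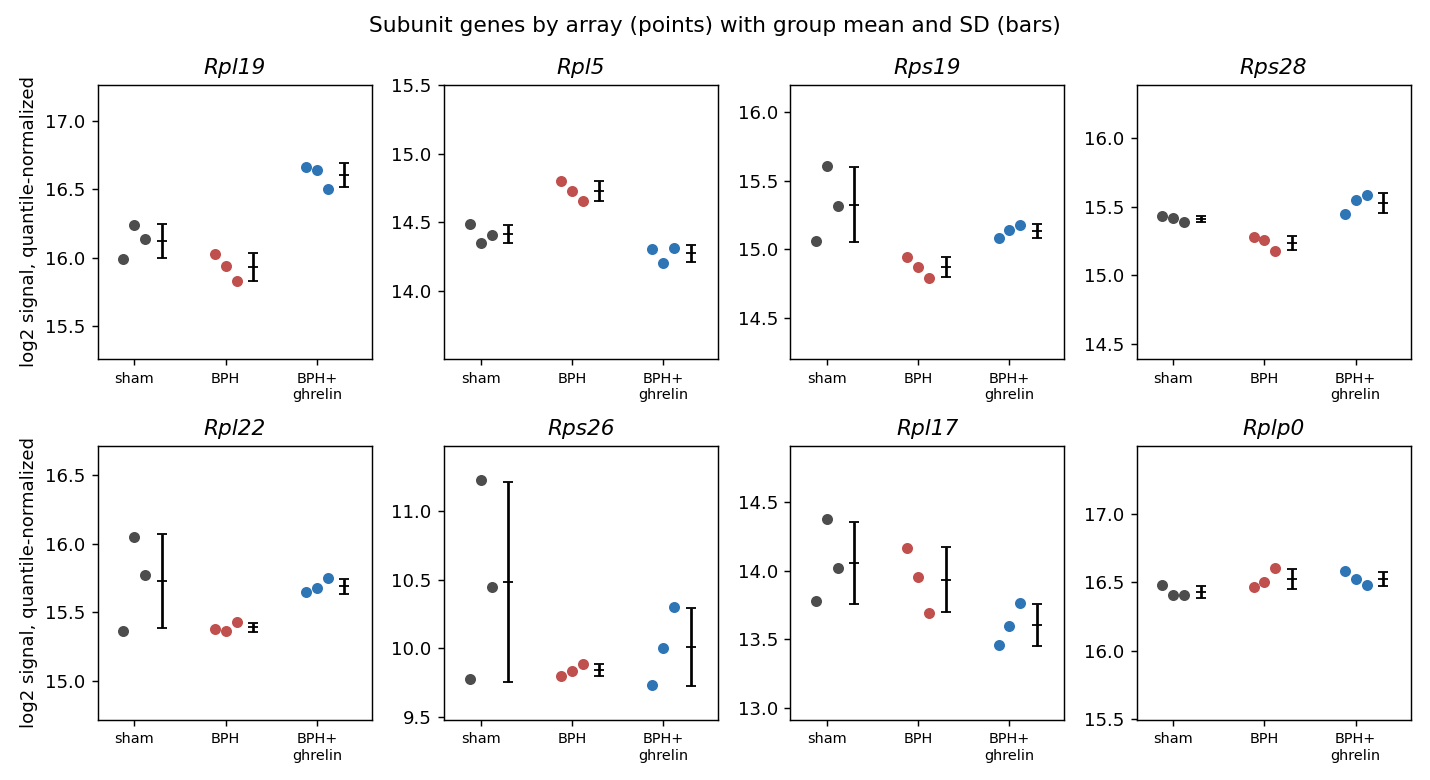
Quantile-normalized log2 signal (y axis, each panel spanning 2 units) of 8 subunit genes in the 3 sham, 3 BPH and 3 BPH+ghrelin arrays, with the group mean and SD beside the points. Rpl19 is higher in all 3 ghrelin arrays, Rpl5 is highest in BPH, and the sham arrays of Rps26, Rps19, Rpl22 and Rpl17 are spread more widely than those of the other groups.

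Relative to sham, 0 of the 73 subunit genes were called in BPH+ghrelin, beside 6.31% of all 19224 genes, and 1 higher and 3 lower genes had an unadjusted p under 0.05. The arrays did not overlap for 18 subunit genes (10 higher and 8 lower), or 24.7%, beside 30.4% of all genes. No subunit gene reached a 2-fold difference, against 7.43% of all genes. The median difference was 0.00 over the 73 genes and 0.04 over all genes. With 75th percentile scaling the median over the 73 genes was -0.079, and 17 of the 73 were higher. Rpl19 had the highest value (0.48, SE 0.12, limma adjusted p = 0.0559), and the difference was 0.46 between the 2 ghrelin and the 2 sham arrays of one slide. Its adjusted p was 0.0329 with normexp correction, 0.0456 with the filter on all 6 arrays and 0.0352 without sham replicate 2, where 6.4%, 7.37% and 10% of all genes were called. Rplp1 was next with 0.25 (SE 0.13, limma adjusted p = 0.311), or 0.12 to 0.31 over the arrays left out. Rpl39, a small protein lining the peptide tunnel, followed with 0.22 (SE 0.18, limma adjusted p = 0.519). It was at 14.91, 15.00 and 15.07 with ghrelin and at 15.12, 14.39 and 14.81 in sham, where sham replicate 2 was again apart, and the difference was 0.026 without that array. The lowest values were those of Rps26 (-0.47, SE 0.33, limma adjusted p = 0.43), Rpl17 (-0.45, SE 0.19, limma adjusted p = 0.199) and Rps16 (-0.39, SE 0.12, limma adjusted p = 0.0979). Without sham replicate 2 the value of Rps26 was -0.099, and without sham replicate 1 it was -0.83. That of Rpl17 was -0.59 to -0.29 over the arrays left out. With normexp correction the brighter probe of Rps16 was called (adjusted p = 0.0329). Its second probe went the other way, with 0.72 (SE 0.21, limma adjusted p = 0.088 among all probes) and without overlap, the widest range between probes of a gene in this comparison (1.11). The second probe of Rpl19 was lower too (-0.29), that of Rpl39 differed by -0.049, and that of Rpl17 by -0.30.

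**Figure D3:**
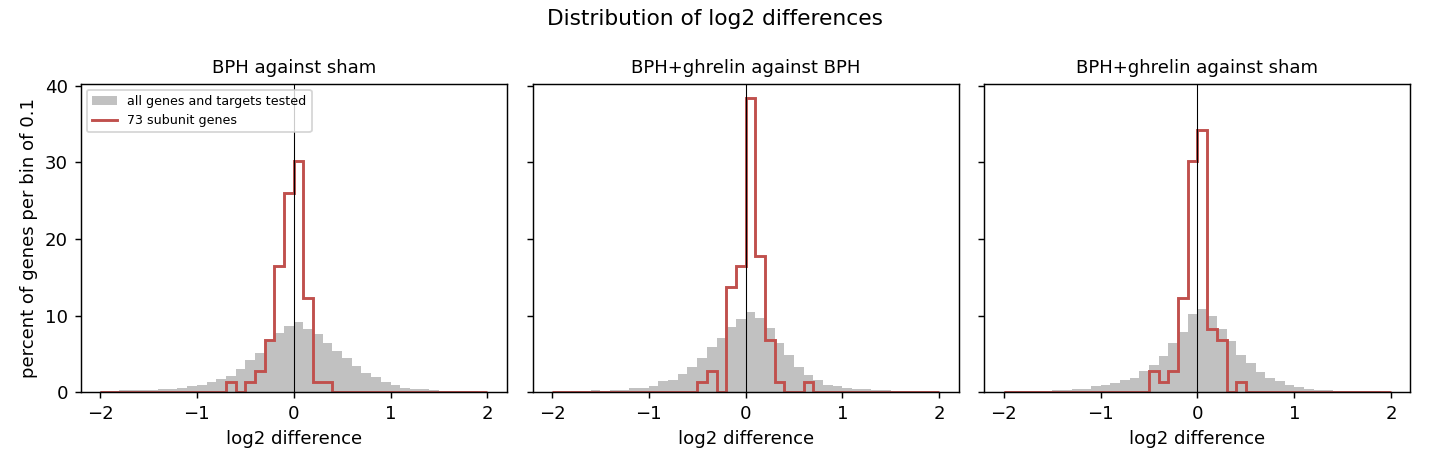
Distribution of log2 differences (x axis, bins of 0.1; y axis, percent of genes) of the 73 subunit genes (red line) and of all genes and unnamed targets tested (grey) in the 3 comparisons. After quantile normalization the subunit genes lie close to 0 in all 3, between -0.64 and 0.67.

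The differences of the family as a whole depended on how arrays were put on one scale. With quantile normalization, the median deviation of the 73 genes from their means over the 9 arrays lay between -0.05 and 0.03 on each array, whereas after scaling each array to its 75th percentile it was -0.38, -0.37 and -0.28 in BPH, -0.02, 0.12 and 0.32 in BPH+ghrelin, and -0.16, 0.65 and 0.15 in sham. The BPH arrays share a slide with BPH+ghrelin replicate 1, the lowest ghrelin array on that scale (-0.02), and with no sham array. Slide and group can therefore not be told apart in BPH against sham, and only in part in BPH+ghrelin against BPH. After 75th percentile scaling all BPH arrays were below all others. The median difference in BPH against sham was then -0.55, with 1 of the 73 genes higher, and in BPH+ghrelin against BPH it was 0.50, with 73 of the 73 genes higher, while under quantile normalization these medians were -0.03 and 0.04. None of the 73 genes was called on that scale in either comparison, beside 4.61% and 2.67% of all genes. The median of all genes moved much less, to -0.09 and 0.10.

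The upper range of all probes moved in the same way. The 99th percentile of the log2 signal exceeded the 75th by 5.83 to 5.90 in BPH, by 6.21 to 6.50 in BPH+ghrelin and by 6.01 to 6.78 in sham, with sham replicate 2 the highest. Quantile normalization removes such a shift of a whole range by construction, and 75th percentile scaling keeps it. BPH+ghrelin replicate 1, on the slide of the BPH arrays, had the lowest value of its group (6.21). Whether the shift belongs to RNA, labelling, scanning or the slide was not tested.

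**Figure D4:**
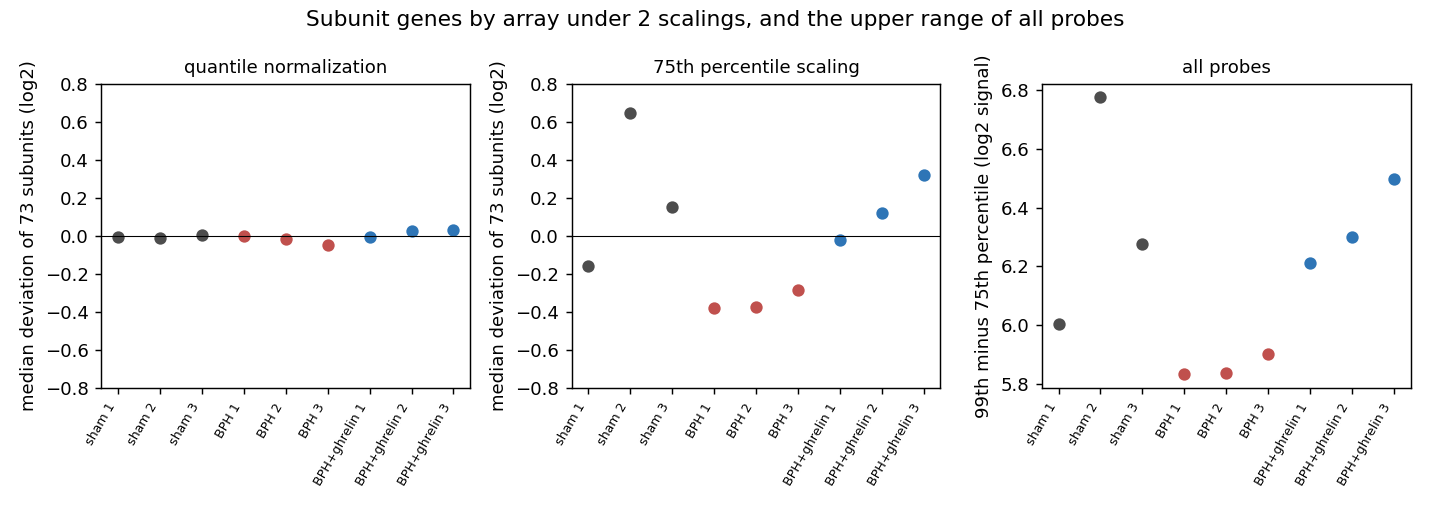
Median deviation of the 73 subunit genes from their own means on each of the 9 arrays (log2, left with quantile normalization, middle with 75th percentile scaling), and the distance from the 75th to the 99th percentile of all probes (log2, right). The BPH arrays are lowest in the middle and right panels and sham replicate 2 is highest, while the left panel stays within 0.05 of 0.

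Single genes were also compared after each array had been centred on the median of the 73 genes. In BPH against sham the differences of the 73 genes then had a median of 0.11, all genes had a median of 0.57, and 23.9% of all genes were called, against 2 of 73 subunit genes. These were Rpl5 with 0.49 (limma adjusted p = 0.0348) and Rps4x with 0.67 (adjusted p = 0.0247). In BPH+ghrelin against BPH the medians were -0.047 for the 73 genes and -0.46 for all genes, and 9.5% of all genes were called, against 1 subunit gene, Rpl5 (-0.52, adjusted p = 0.0482). Rpl19 differed by 0.52 there (adjusted p = 0.0648). On the same scale Rps26 differed by -0.06 in BPH against sham, compared with -0.64 after quantile normalization. This centring was chosen after the values had been seen.

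**Figure D5:**
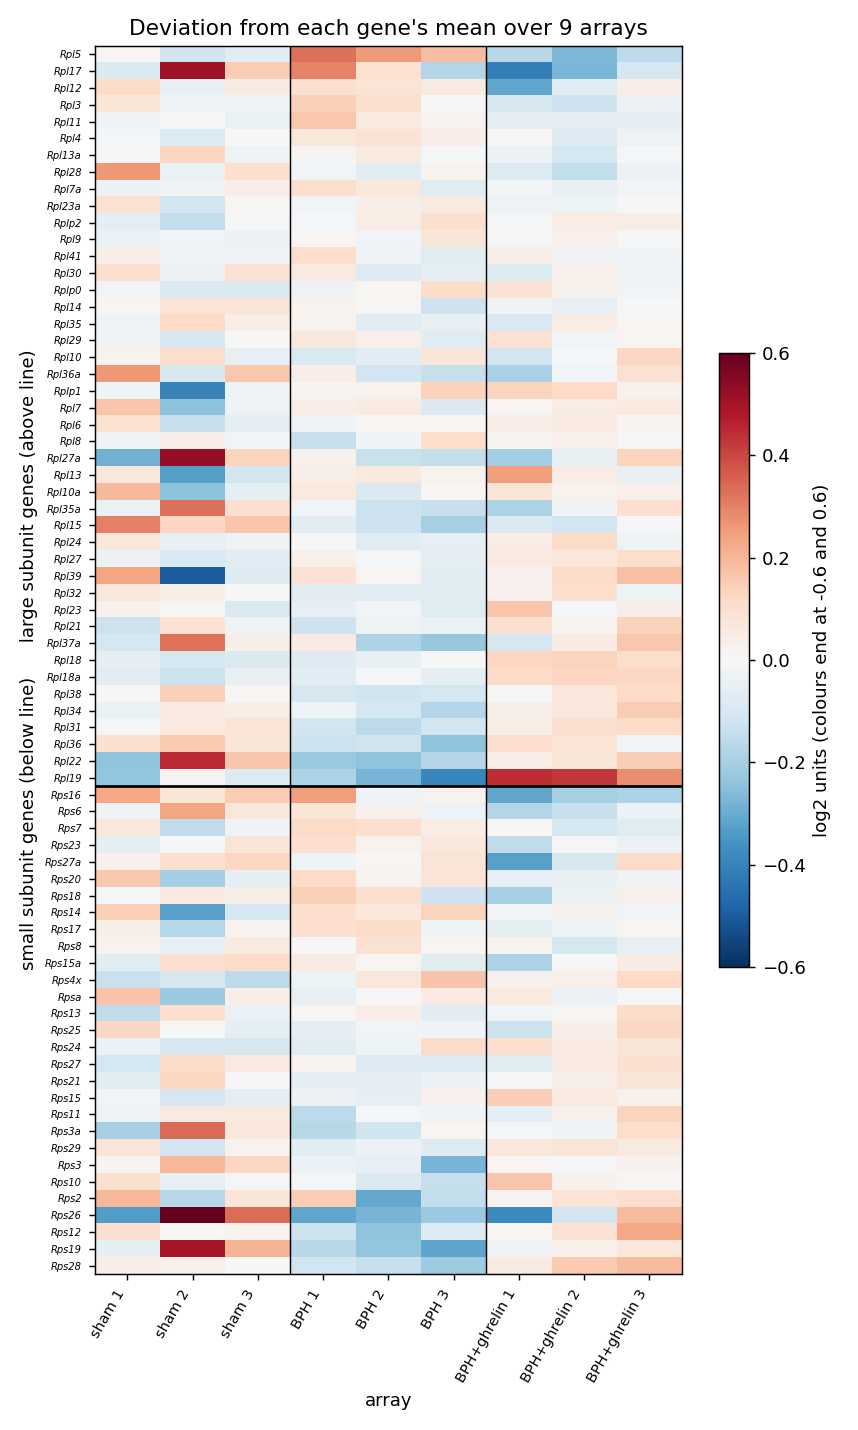
Deviation of each of the 73 subunit genes (rows; large subunit above the line, small below, sorted by the difference of BPH+ghrelin and BPH) from its own mean over the 9 arrays (columns), in log2 units. Most cells are pale, Rpl19 and Rpl5 differ in opposite directions between BPH and BPH+ghrelin, and sham replicate 2 has the most strongly coloured column.

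Sham replicate 2 stood apart within the family. The SD of the deviations over the 73 genes was 0.23 on this array and 0.09 to 0.14 on the other 8. Its deviations ran with those of sham replicate 3 (r = 0.71 across 73 genes) and against those of sham replicate 1 (r = -0.61), although replicates 1 and 2 share a slide. Within the BPH group the correlations were 0.32 to 0.65, and within BPH+ghrelin 0.21 to 0.71. Genes are not independent replicates, the arrays share the mean that was subtracted, and these values are descriptions only.

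Rps6, Rplp0, Rplp2, Rpsa, Rpl10 and Rps27a were named for their roles, and none was called in the 3 comparisons. Rps6, the small subunit protein that S6 kinases phosphorylate, was at 14.82, 15.08 and 14.90 in sham, 14.91, 14.86 and 14.81 in BPH, and 14.66, 14.70 and 14.80 in BPH+ghrelin. The ghrelin arrays were below all BPH and sham arrays, with differences of -0.14 and -0.21 (SE 0.12 each, limma adjusted p = 0.518 and 0.311). Rplp0, the base of the P stalk and a common PCR reference, was at 16.48, 16.41 and 16.41 in sham, 16.46, 16.50 and 16.60 in BPH, and 16.58, 16.52 and 16.48 in BPH+ghrelin.

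Rplp2, the partner of Rplp1, ranged from 16.67 to 16.91 over the 9 arrays. Rpsa, which is also known as the laminin receptor precursor, differed by 0.01 in each of the 3 comparisons (SE 0.13). Rpl10, a late-joining protein needed to activate the large subunit, differed by -0.05, 0.03 and -0.02 in BPH against sham, BPH+ghrelin against BPH and BPH+ghrelin against sham, and Rps27a, which is made as a fusion with ubiquitin, differed by -0.06, -0.12 and -0.18. Second probes gave other values. That of Rps27a differed by -0.13, 0.28 and 0.15 in the same order, with the ghrelin arrays above all BPH and sham arrays (limma adjusted p = 0.2 and 0.446 among all probes). That of Rpl10 differed by -0.35, 0.20 and -0.15, that of Rps6 by 0.15, -0.16 and -0.013, and that of Rpsa, far dimmer, by 0.26, 0.14 and 0.40.

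Fau and Rack1 encode core proteins but have symbols outside the rule, and neither was called. Fau, the precursor of Rps30, differed by 0.03 in BPH against sham and by -0.06 in BPH+ghrelin against BPH. Rack1, a scaffold protein on the small subunit, differed by -0.10 and -0.01 in these comparisons.

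Of the paralogs and copies, 7 of 9 were tested and 0 were called in any comparison, beside 4.35%, 1.49% and 6.31% of all genes. Rpl22l1, the paralog of Rpl22, was at 12.70, 12.36 and 12.58 in sham, 12.03, 12.18 and 12.47 in BPH, and 12.40, 12.70 and 12.89 in BPH+ghrelin. The groups overlapped, and its differences were -0.32 (SE 0.18, limma adjusted p = 0.283) in BPH against sham and 0.44 (SE 0.18, limma adjusted p = 0.216) in BPH+ghrelin against BPH. Its second, far dimmer probe did not overlap between any 2 groups, with -0.53 (SE 0.13, limma adjusted p = 0.0587 among all probes), 0.26 and, relative to sham, -0.26, where the brighter probe differed by 0.11. Rpl22 itself differed by -0.34 and 0.30 in the first 2 comparisons. Rpl37l1 differed by -0.42 in BPH against sham (SE 0.21), where sham replicate 2 was at 11.77 and the other sham arrays at 10.91 and 11.25. Rps12l4, a dim probe between 3.56 and 4.50, differed by -0.48 in BPH+ghrelin against sham (SE 0.22, limma adjusted p = 0.227). Rpl36al1, Rplp1l1 and Rps4y2 differed by 0.15 or less in size in all 3 comparisons, and Rpl39l1, which was well above background on 5 of 9 arrays, by 0.22 or less. For Rps4y2 this held for the brighter probe alone, as the second differed by -0.33, -0.63 and -0.96, the last (SE 0.30, limma adjusted p = 0.0981 among all probes) without overlap.

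Several genes had probes that disagreed. In BPH against sham, the probes of 3 of 47 genes with several tested probes differed by more than 0.5, and 41 of 61 further probes had the sign of the brightest probe. The widest range was that of Rps16. Its brighter probe differed by -0.07 (SE 0.12), while the second probe was at 10.84, 10.97 and 10.87 in sham, at 11.43, 11.95 and 12.36 in BPH, and at 11.61, 11.67 and 11.57 in BPH+ghrelin. That probe was 1.01 higher in BPH than in sham (SE 0.21, limma adjusted p = 0.042 among all probes), without overlap. With every probe as a feature, 1 of 130 subunit probes was called in BPH against sham (4.33% of all probes tested), 1 of 130 in BPH+ghrelin against BPH (1.38%) and 0 of 130 in BPH+ghrelin against sham (5.97%).

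The RefSeq table lists 1192 entries with symbols of this family, of which 883 are pseudogenes. All 77 core genes have at least 1 pseudogene with their name, with a median of 11, and 15 are named for Rpl19 and 9 for Rps16. A probe could bind RNA from a near-identical copy, so the gene behind each probe value is uncertain. Which of 2 disagreeing probes follows its gene was not tested.

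Other genes of the translation machinery were compared with the family. After quantile normalization, 22 of 26 initiation factors were higher in BPH than in sham, beside 53.7% of all genes. Their median difference was 0.30, beside 0.04 over all genes. This list and those that follow were not summarized on another scale. Sham replicate 2 was the lowest sham array for some factors, such as Eif4a2, Eif4g2 and Eif5a. It was the highest for others, such as Eif2b3 and Eif2b4. The median of the factors without this array was not computed. Called were 2 of the 26, beside 4.35% of all genes. With the slide as a block, 2 of all genes were called in BPH against sham (0.0102%), so most calls there were lost. With that block 2 were called in BPH+ghrelin against BPH (0.0101%) and 85 in BPH+ghrelin against sham (0.442%). The calls of single genes given here and below are without the slide block. Eif1ax, which takes part in start codon scanning, rose by 1.02 (SE 0.18, limma adjusted p = 0.0259), from 11.56, 11.57 and 11.55 to 12.24, 12.62 and 12.88. Eif2b4, a subunit of the exchange factor for Eif2, rose by 0.67 (SE 0.14, limma adjusted p = 0.0375). With ghrelin relative to BPH, 9 of the 26 were higher and 0 were called, with a median of -0.09, beside 51.7% higher and 1.49% called of all genes. Relative to sham, 22 of the 26 were higher with ghrelin (median 0.15) and 0 were called, beside 54.4% and 6.31% of all genes.

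Further mRNAs with a TOP tract, such as those of elongation factors, split in BPH against sham. Of 15 tested, 11 were higher (median 0.10) and 2 were called, beside 53.7% and 4.35% of all genes. Nap1l1, a histone chaperone, rose by 0.82 (SE 0.13, limma adjusted p = 0.0171), and Hnrnpa1, an RNA-binding protein, fell by 0.52 (SE 0.10, limma adjusted p = 0.0372). Of the 15, 5 were higher in BPH+ghrelin than in BPH (median -0.12) and 0 were called, beside 51.7% and 1.49% of all genes. Relative to sham, 6 were higher and 0 were called, beside 54.4% and 6.31%. Of 43 ribosome assembly genes, 1 was called in BPH against sham, where 4.35% of all genes were called: Heatr1, which is needed for transcription and processing of pre-rRNA, rose by 0.72 (SE 0.15, limma adjusted p = 0.0379). Their medians were 0.08, 0.08 and 0.16 in BPH against sham, BPH+ghrelin against BPH and BPH+ghrelin against sham.

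Among 19 genes of TOR and Myc signalling, Mtor itself rose in BPH against sham by 0.63 (SE 0.13, limma adjusted p = 0.0347), from 7.31, 6.99 and 7.18 to 7.89, 7.79 and 7.70, and was the 1 of 19 called, beside 4.35% of all genes. This call too is without the slide block, with which 2 of all genes were called in BPH against sham, and no slide holds both groups. In the comparisons with BPH+ghrelin, 0 genes of this list were called, beside 1.49% of all genes relative to BPH and 6.31% relative to sham. Mitochondrial ribosomal proteins, which build the separate ribosome of mitochondria, had 66 tested genes. After quantile normalization their median was 0.19 in BPH+ghrelin against BPH, with 50 of 66 higher (51.7% of all genes), beside 0.04 for the cytosolic subunits. With 75th percentile scaling the cytosolic median was 0.50 in this comparison, with 73 of 73 higher, and that of all genes was 0.10. The mitochondrial list was not summarized on that scale, so the 2 families can be set side by side after quantile normalization only. The 1 of 66 mitochondrial genes called in BPH+ghrelin against BPH after quantile normalization (1.49% of all genes), Mrps23, fell by 0.60 (SE 0.10, limma adjusted p = 0.0385). Relative to sham their median was 0.16 with ghrelin, and Mrpl49 (0.87, SE 0.18, limma adjusted p = 0.0288), Mrpl4 (0.83, SE 0.20, limma adjusted p = 0.0475) and Mrpl51 (0.56, SE 0.12, limma adjusted p = 0.0378) rose, 3 of 66 beside 6.31% of all genes. In BPH against sham 27 of 66 were higher and 0 were called, beside 53.7% and 4.35% of all genes. These medians were not tested against those of the subunits.

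Cell markers differed between the groups. On the log2 scale, the summed signal of 5 of 6 seminal vesicle markers with a probe was 16.46 to 17.27 in sham, 9.48 to 14.79 in BPH and 9.09 to 11.92 in BPH+ghrelin. Of these 5, 2 were higher and 3 lower in BPH than in sham, with differences from -5.58 to 1.27. With ghrelin relative to BPH, 1 was higher and 4 were lower. The 8 secretory epithelium markers summed to 17.18 to 17.22 in sham, 16.24 to 16.73 in BPH and 16.31 to 16.62 in BPH+ghrelin. Of these 8, 4 were higher and 4 lower in BPH than in sham, and 2 were higher and 6 lower with ghrelin than in BPH. Of 6 smooth muscle markers, 0 were higher in BPH+ghrelin than in BPH (median -0.52), with sums of 14.03 to 14.16 with ghrelin and 14.09 to 15.04 in BPH. The immune markers (6 of 8 well above background on all arrays, Cd79b on 0) summed to 10.62 to 10.71 with ghrelin, 11.39 to 11.54 in BPH and 11.12 to 11.23 in sham. Of the 6 tested, 2 were higher and 4 lower with ghrelin than in BPH, and 3 were higher and 3 lower in BPH than in sham. Fat markers varied between arrays, from 3.88 to 12.04 in sham, 10.02 to 11.45 in BPH and 2.89 to 11.94 with ghrelin, with Lep well above background on 0 arrays. The fibroblast (13.66 to 14.55, 14.24 to 14.85 and 14.18 to 14.65 in sham, BPH and BPH+ghrelin) and striated muscle sums (8.36 to 8.90, 8.05 to 9.07 and 8.34 to 8.71) overlapped between groups. Lum, a fibroblast marker, fell by 1.65 with ghrelin relative to BPH (limma adjusted p = 0.0241), with 5 of 6 fibroblast markers lower, and Ckm, a striated muscle marker, fell by 1.90 in BPH against sham (limma adjusted p = 0.00452), with 2 of 4 striated muscle markers tested higher (Acta1 0.54, Myh2 0.42) and 2 lower. Basal epithelium sums were 12.07 to 12.58, 12.33 to 12.77 and 12.81 to 12.90. Of these markers, 2 of 4 were higher with ghrelin than in BPH (Krt15 0.44 and Tp63 0.16, beside Krt5 -0.65 and Krt14 -0.24), and in BPH against sham Krt14 rose by 0.72 (limma adjusted p = 0.0446) while Tp63 differed by -0.73 (limma adjusted p = 0.112). The sums of 3 endothelial markers were 10.14 to 10.48, 9.63 to 10.27 and 9.55 to 9.78. Their part in the differences of Rpl19, Rpl5 and the other subunit genes was not tested.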

How the data were processed

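Rat prostate RNA samples, 9 in all (3 sham, 3 BPH, 3 BPH+ghrelin, grouped by the sample labels) had been labelled with Cy3 and read with Feature Extraction 11.0.1.1. The authors deposited, for each of 44254 spots, the processed signal as a linear intensity after background subtraction, not normalized between arrays. They also deposited a matrix of quantile-normalized log2 values, used only as an alternative. Outlier spots (313 to 741 per array) were removed, spots of a probe averaged, and log2 signals of 30356 probes quantile normalized over the 9 arrays, as named in the methods. No spot was saturated, and precision is limited by the number of arrays.

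Accessions of 17998 probes (59.3%) matched a gene of the RefSeq table (assembly GRCr8). Probes needed 3 or more of the 6 compared arrays well above background, and a gene was represented by its probe with the highest mean. The limma package (version 3.58.1, R 4.3.3) was fitted to 9 arrays and 3 groups and tested on simulated data. Per comparison, called subunit genes and the 3 highest and 3 lowest were named, besides preset genes, paralogs, genes whose probes differed in sign by over 1 log2 unit and called genes of related lists. The members and lists were chosen with earlier results of these data known. Alternatives were 75th percentile scaling, normexp (offset 50, on median signals), no filter or a filter on all 6 arrays, probes in place of genes, the 6 arrays alone, replicate and slide blocks, the deposited matrix, each array left out, and 2 added later (centring on the subunits, and leaving out the array between the other 2 in each group).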

Additional observations from a re-analysis of the deposited data

How the results depend on the processing

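The count of called subunit genes in BPH against sham was 0 and became 1 with probes in place of genes, 3 without sham replicate 1 (0 to 3 over the arrays left out) and 2 with centring on the subunits, where 4.33%, 15.7% and 23.9% of all features were called. In BPH+ghrelin against BPH the 1 call was lost (0) with 75th percentile scaling, without a filter on dim probes, with the replicate block, with the slide block and without the array between the other 2 in each group, with 2.67%, 0.699%, 0.101%, 0.0101% and 0% of all genes called in these 5 settings, became 2 with normexp and with the 6 arrays alone (1.98% and 10.7% of all genes), was Rpl5 in place of Rpl19 with centring, and ranged from 0 to 2 over the arrays left out, with 0 without any one of the 6 arrays compared and without sham replicate 3. In BPH+ghrelin against sham the count of 0 became 2 with normexp (6.4% of all genes), 1 with the filter on all 6 arrays (7.37%) and 0 to 1 over the arrays left out. Medians moved to -0.55, 0.50 and -0.079 with 75th percentile scaling, to 0.018 and 0.012 in the first 2 comparisons with the slide block, and to -0.054 and -0.023 in BPH against sham and BPH+ghrelin against sham with probes; over the arrays left out they were -0.040 to -0.018, 0.027 to 0.056 and -0.0094 to 0.020. Among the 3 highest and 3 lowest genes, those reversed with 75th percentile scaling were Rplp1 (-0.31) and Rpl5 (-0.16) in BPH against sham, and Rpl5 (0.035), Rpl17 (0.091) and Rps16 (0.0058) in BPH+ghrelin against BPH. Of all 73 genes, the number higher went from 33 to 1 in BPH against sham with this scaling. In BPH+ghrelin against BPH it went from 48 to 73, so every lower value was reversed, also those of Rpl11, Rps6 and Rps27a. The brighter probe of Rpl19 stayed higher with ghrelin than in BPH under every alternative run, whereas its second probe was lower (-0.30). The brighter probe was at 0.62 to 0.72 over the arrays left out (adjusted p 0.0184 to 0.221), and its adjusted p was 0.0592 without the filter, 0.105 with the replicate block and 0.947 without the array between the others in each group. The last setting keeps the outer arrays of each group, which by itself widens the spread within groups. Same-numbered arrays did not deviate together (r from -0.12 to 0.27), so the numbers were not taken as pairs; the block changed no other call of the subunit genes. No slide holds both BPH and sham arrays, so no within-slide value exists there. The cause of these changes was not tested. The 2 member genes never well above background have no value.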
